A study of Mus musculus with 12 samples.

Results

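The genes described here are 10 transcription factors and cofactors of the choice between the helper and the cytotoxic T cell lineage: *Zbtb7b*, *Zbtb7a*, *Runx1*, *Runx3*, *Cbfb*, *Patz1*, *Tox*, *Gata3*, *Myb* and *Satb1*. They were picked by symbol and not by a rule on their values, though with earlier results of these data known. All 10 were among the 12809 genes of the deposited table. RNA was sequenced from CD4 and CD8 T cells sorted from lymph nodes (LN), giving 12 libraries, 3 for each of 4 groups. The B6 CD4 and B6 CD8 groups came from female C57BL/6 mice aged 10 weeks, and the FlipFlop CD4 and FlipFlop CD8 groups from female FlipFlop mice aged 14 weeks. In FlipFlop mice, both copies of chromosome 6 carry a *Cd4* locus altered to encode CD8αβ.1 and a *Cd8a* locus altered to encode CD4, so that each coreceptor protein is made from the locus of the other. The altered *Cd8a* locus was originally made in 129R1 embryonic stem cells. The study states that genes of the strain of these cells are still present in FlipFlop mice. It gives them as the cause of the few exceptions to the reversed gene expression in its heat map. None of the 10 genes lies on chromosome 6. Whether DNA of the stem cell strain remains at or near any of the 10 genes was not tested. The ages are those of the labels, and the study's methods give a general age range for its mice that ends below the age labelled for FlipFlop mice. With the labelled ages, strain and age cannot be told apart in any comparison of FlipFlop with B6 cells. Nothing in the labels says whether replicates came from separate animals, so p-values measure the spread between these libraries.

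Immature thymocytes carry both coreceptors and settle on 1 of 2 fates. ThPOK, the protein of *Zbtb7b*, is the factor that commits cells to the helper fate, and Runx proteins bound to their partner CBFβ drive the cytotoxic fate, silence *Cd4* and repress *Zbtb7b*. GATA-3, TOX, MYB, SATB1 and PATZ1 (also called MAZR) act earlier or at the level of the *Zbtb7b*, *Cd4* and *Cd8* regulatory elements, and GATA-3 and TOX are needed for helper cells to form.

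Values are CPM, the reads of a gene relative to those of its library, scaled for library composition by TMM. Differences are on the log2(CPM + 0.5) scale, with standard errors (SE) and, from limma, Benjamini-Hochberg adjusted p-values over 11595 tested genes, and a gene was called at an adjusted p under 0.05. The lineage effect is the mean of the B6 CD4 and FlipFlop CD8 groups, whose coreceptor is made from the *Cd4* locus, minus the mean of the B6 CD8 and FlipFlop CD4 groups, whose coreceptor is made from the *Cd8a* locus. The former are called helper-lineage and the latter cytotoxic-lineage groups, as in the study. The lineage effect also tests whether the CD4 minus CD8 difference is unlike in B6 and FlipFlop mice, and its size is the B6 minus FlipFlop gap between these differences divided by 2. The coreceptor effect is the mean of the CD4 minus CD8 differences in B6 and FlipFlop mice, and is 0 for a gene whose FlipFlop difference mirrors that in B6 mice. All 10 genes passed the filter of at least 1 CPM in at least 3 libraries.

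Reads on the listed genes numbered about 26600000 to 33100000 per library, and a floor of 3 reads stood at 0.0857 to 0.120 CPM. Over all tested genes, B6 CD4 replicate 1 lay farthest from the others of its group, at a root mean square log2 distance of 0.404 against 0.250 to 0.351 for the other libraries. T cell markers were present in every library, with 336 to 410 CPM of *Cd3e*, while the summed B cell markers were at 38.5 to 73.0 CPM. The thymocyte genes *Rag1*, *Rag2* and *Ptcra* and the NK cell genes *Ncr1*, *Klra8* and *Klri2* are not among the listed genes. The other thymocyte markers, *Dntt* and *Cd1d1*, were present in every library (6.11 to 18.3 and 23.4 to 42.4 CPM), and the NK markers *Klrb1c* and *Tyrobp* summed to 11.5 to 12.9 CPM in FlipFlop CD8 and to 2.23 to 5.52 CPM in the other libraries, a difference of *Klrb1c* and not of *Tyrobp*. The summed 6 markers of regulatory T cells differed between groups, with 371 to 457 CPM in B6 CD4, 61.6 to 68.5 in B6 CD8, 68.5 to 72.7 in FlipFlop CD4 and 921 to 1081 in FlipFlop CD8 T cells. Follicular helper markers, 5 genes, summed to 251 to 305, 108 to 116, 118 to 149 and 423 to 493 CPM in the same order. Memory or effector markers, 6 genes, summed to 402 to 497, 759 to 838, 438 to 485 and 833 to 1243 CPM, with *Il2rb* the most abundant of them in each group, and naive markers, 5 genes, to 3053 to 3447, 3673 to 3990, 3212 to 3663 and 2517 to 2737 CPM. The part of these cells in the results was not tested. These libraries are of bulk cells, in which fewer cells of a type and less RNA per cell cannot be told apart.

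*Zbtb7b* was high in both groups whose coreceptor is made from the *Cd4* locus and low in both groups whose coreceptor is made from the *Cd8a* locus. The gene (ENSMUSG00000028042.15) lies on chromosome 3 from 89377644 to 89394776 on the minus strand (GRCm38). The B6 CD4 libraries held 203, 193 and 192 CPM of *Zbtb7b*, and the FlipFlop CD8 libraries 162, 171 and 172 CPM. In the B6 CD8 libraries it was at 1.498, 1.16 and 1.99 CPM, and in the FlipFlop CD4 libraries at 1.87, 2.21 and 2.79 CPM. The 6 helper-lineage libraries all stood above the 6 cytotoxic-lineage libraries, with no overlap and a wide gap between them. The lowest library still held 29 *Zbtb7b* reads, which is above the floor of 3 reads. In cytotoxic-lineage libraries, *Zbtb7b* RNA was thus low and not at the floor. Which cells in these libraries held this RNA was not tested.

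The CD4 minus CD8 difference of *Zbtb7b* was 6.60 (SE 0.14, adjusted p = 1.37e-11) in B6 mice and -5.93 (SE 0.14, adjusted p = 8.24e-11) in FlipFlop mice. Its lineage effect was 6.27 (95% interval 6.05 to 6.48), or 77.0-fold on this scale. Among the groups the order was B6 CD4, FlipFlop CD8, FlipFlop CD4 and B6 CD8. Neither pair of neighbors of like lineage passed the test: FlipFlop CD8 minus B6 CD4 was -0.22 (adjusted p = 0.249), and FlipFlop CD4 minus B6 CD8 was 0.45 (95% interval 0.15 to 0.76, adjusted p = 0.0735). The latter passed without B6 CD8 replicate 3 (0.60, adjusted p = 0.0217) and without FlipFlop CD4 replicate 1 (0.56, adjusted p = 0.0411). The FlipFlop CD4 and B6 CD8 libraries overlapped, and the FlipFlop CD8 and B6 CD4 libraries did not. An antisense gene, *Gm15417*, shares exon sequence with *Zbtb7b*, and no source used here says that reads were counted by strand. It measured 1.29 to 3.53 CPM in helper-lineage and 0.0362 to 0.08004 CPM in cytotoxic-lineage libraries, far under the *Zbtb7b* values.

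RefSeq promoter windows of GRCm38.p6, 250 bases before to 50 after a transcript start, were found for 9 of the 10 genes, 17 windows in all. The letters TGTGGT or TGCGGT, to which Runx proteins are known to bind, occurred on either strand in 22.4% of 32851 promoter windows, and in 4 of the 17 windows. One of these is the internal *Zbtb7b* start on the minus strand, shown because repression of *Zbtb7b* by Runx complexes is the best known link between the genes described here. The match is in capitals, 89 bases before the start.
Zbtb7b chr3:89387622-89387921: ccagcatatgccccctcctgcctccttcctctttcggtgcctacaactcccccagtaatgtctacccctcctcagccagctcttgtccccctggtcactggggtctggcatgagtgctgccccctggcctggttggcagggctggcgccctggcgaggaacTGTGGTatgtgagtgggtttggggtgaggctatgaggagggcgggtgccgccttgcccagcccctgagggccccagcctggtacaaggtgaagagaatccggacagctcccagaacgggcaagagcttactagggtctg
This is a match of letters and not a measured binding site. The share of all windows with such a match shows that it is common. The window of the upstream *Zbtb7b* start held no such match.

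**Figure D1:**
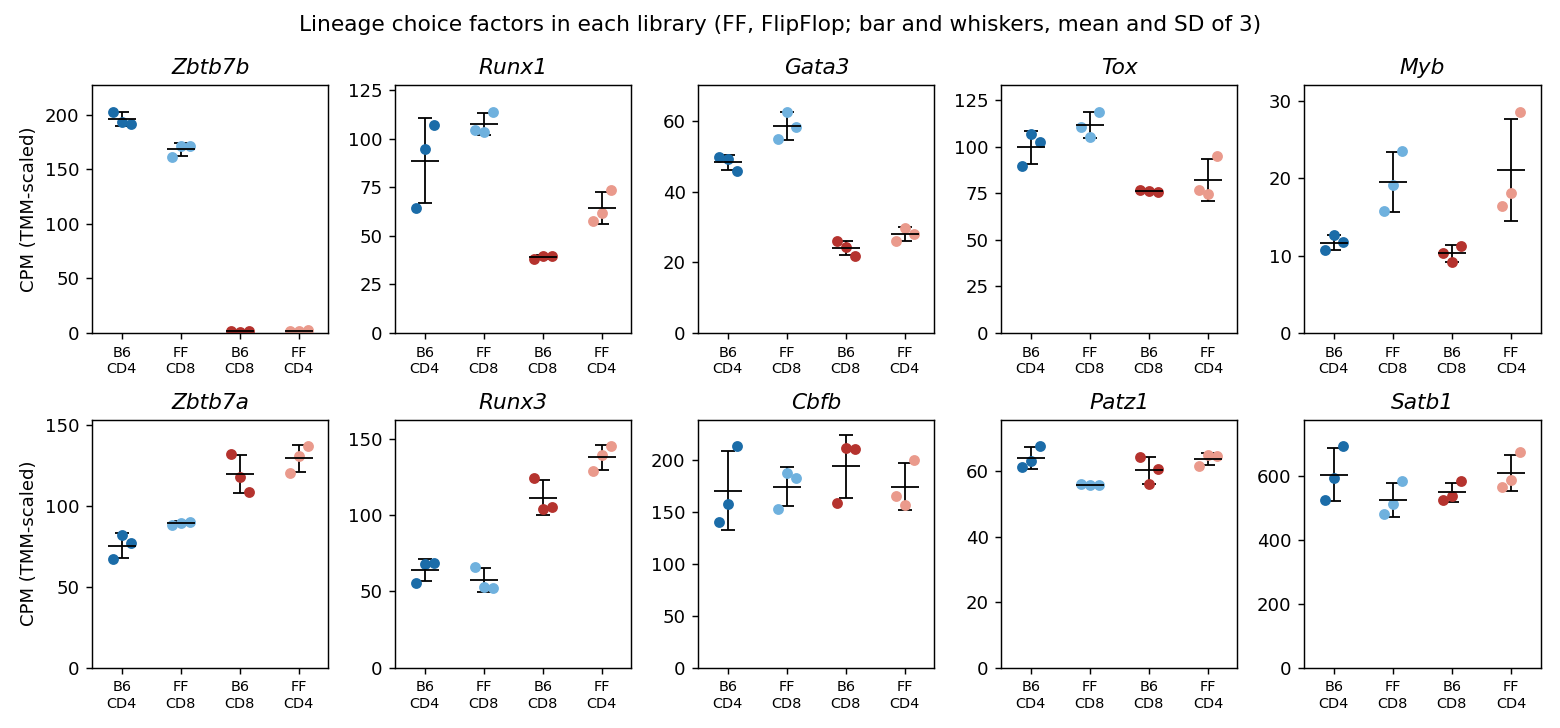
CPM of each of the 10 genes (y axis, linear from 0) in the 12 libraries by group (x axis: B6 CD4, FlipFlop CD8, B6 CD8 and FlipFlop CD4, with FF for FlipFlop). Points are libraries, and the bar and whiskers give the mean and SD of 3. *Zbtb7b*, *Gata3*, *Zbtb7a* and *Runx3* separate the first 6 libraries from the last 6, and *Myb* separates FlipFlop from B6 libraries.

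*Zbtb7a*, the paralog of *Zbtb7b* that encodes LRF, moved the other way. Its position is chromosome 10 from 81135220 to 81152995 (ENSMUSG00000035011.15). Its values in B6 CD4 libraries were 67.3, 82.2 and 77.0 CPM and in FlipFlop CD8 libraries 88.1, 89.4 and 90.4 CPM. In B6 CD8 libraries they were 132, 118 and 109 CPM, and in FlipFlop CD4 libraries 120, 131 and 137 CPM. Each cytotoxic-lineage library was above each helper-lineage library. In B6 mice CD4 minus CD8 was -0.66 (SE 0.09, adjusted p = 0.000126), in FlipFlop mice it was 0.53 (SE 0.09, adjusted p = 0.000604), and the lineage effect was -0.60.

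Within each library, the *Zbtb7b* value divided by the *Zbtb7a* value was 2.35 to 3.02 in B6 CD4, 1.83 to 1.91 in FlipFlop CD8, 0.00982 to 0.0183 in B6 CD8 and 0.0155 to 0.0204 in FlipFlop CD4 T cells. Levels of different genes were compared per kb of annotated exon, with the exons of all annotated transcripts of a gene joined. Which transcripts were present is not known, so these levels are rough. *Zbtb7b* stood at 35.1 CPM per kb and *Zbtb7a* at 11.1 in B6 CD4 T cells, and at 30.1 and 13.1 in FlipFlop CD8 T cells. In B6 CD8 T cells *Zbtb7a* stood at 17.6 and *Zbtb7b* at 0.277 CPM per kb, and in FlipFlop CD4 T cells at 19.0 and 0.410. *Zbtb7a* thus made up 98.4% and 97.9% of the summed level of these paralogs in the cytotoxic-lineage groups, against 24.0% and 30.4% in B6 CD4 and FlipFlop CD8 T cells.

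*Runx3*, the main Runx gene of cytotoxic T cells, was higher in the groups in which *Zbtb7b* was low. The gene (ENSMUSG00000070691.10) spans 135120652 to 135177990 on chromosome 4. The B6 CD8 libraries held 124, 104 and 105 CPM, and the FlipFlop CD4 libraries 129, 140 and 145 CPM. In B6 CD4 libraries it measured 55.6, 67.7 and 68.4 CPM, and in FlipFlop CD8 libraries 66.2, 52.9 and 52.6 CPM. The cytotoxic-lineage libraries all lay above the helper-lineage libraries, but in the latter *Runx3* RNA remained at over 50 CPM. B6 CD4 minus CD8 was -0.80 (SE 0.11, adjusted p = 0.000185) and FlipFlop CD4 minus CD8 was 1.27 (SE 0.11, adjusted p = 3.08e-06), with a lineage effect of -1.03 (95% interval -1.20 to -0.86). The table holds 1 value per gene, so transcripts from the distal and the proximal *Runx3* promoter are summed in it.

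*Runx1*, which is used throughout thymocyte development, went opposite to *Runx3*. The gene (ENSMUSG00000022952.17) spans 92601466 to 92826149 on chromosome 16. The B6 CD4 libraries held 64.3, 94.97 and 107 CPM, and the FlipFlop CD8 libraries 105, 104 and 114 CPM. In B6 CD8 libraries it measured 37.9, 39.7 and 39.6 CPM, and in FlipFlop CD4 libraries 57.8, 61.9 and 73.6 CPM. Within each strain the groups did not overlap, but the highest FlipFlop CD4 library exceeded the lowest B6 CD4 library. B6 CD4 minus CD8 was 1.14 (SE 0.15, adjusted p = 0.000117) and FlipFlop CD4 minus CD8 was -0.74 (SE 0.15, adjusted p = 0.00262). Between the cytotoxic-lineage groups, *Runx1* was higher in FlipFlop CD4, by 0.71 (SE 0.15, adjusted p = 0.0131), a call that ended without FlipFlop CD4 replicate 3 (adjusted p = 0.0595).

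The ratio of *Runx3* to *Runx1* within a library was 2.61 to 3.28 in B6 CD8 and 1.97 to 2.26 in FlipFlop CD4, against 0.638 to 0.865 in B6 CD4 and 0.461 to 0.632 in FlipFlop CD8 T cells. Helper- and cytotoxic-lineage libraries did not overlap in this ratio. Per kb of exon, *Runx1* made up 36.3% of the summed *Runx1* and *Runx3* level in B6 CD4, 44.0% in FlipFlop CD8, 12.8% in B6 CD8 and 16.2% in FlipFlop CD4 T cells. The sum itself was 16.5 to 22.6 CPM per kb in B6 CD4, 19.2 to 22.0 in FlipFlop CD8, 24.1 to 28.0 in B6 CD8 and 30.5 to 35.1 in FlipFlop CD4 libraries. The FlipFlop CD4 libraries had the highest sums, above all other libraries.

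**Figure D2:**
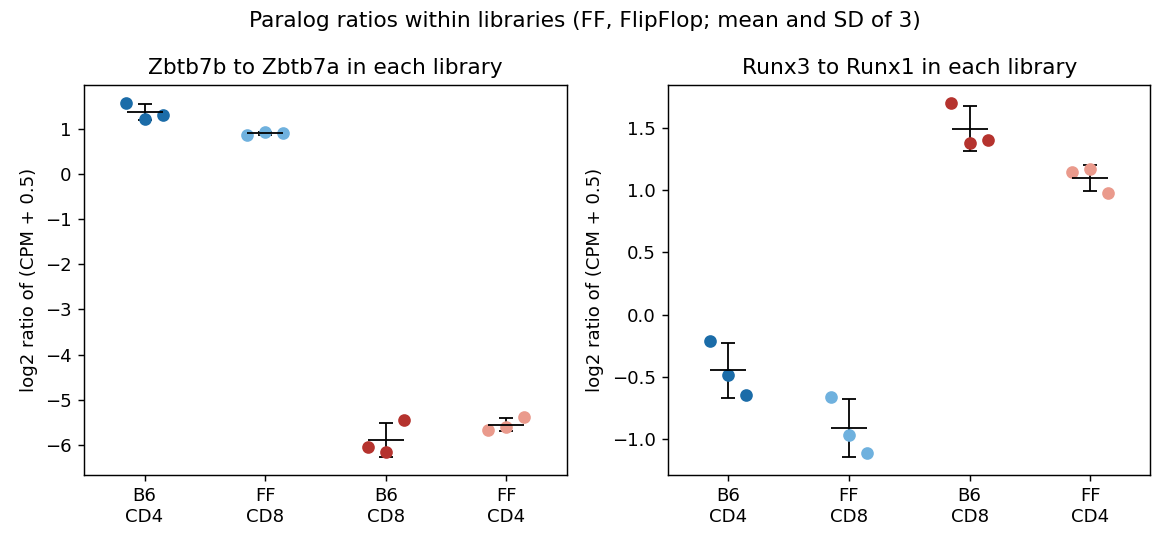
Log2 ratio of (CPM + 0.5) within each library (y axis) of *Zbtb7b* to *Zbtb7a* on the left and *Runx3* to *Runx1* on the right, by group (x axis). Points are libraries, and the bar and whiskers give the mean and SD of 3. The helper-lineage groups B6 CD4 and FlipFlop CD8 are high on the left and low on the right.

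**Figure D3:**
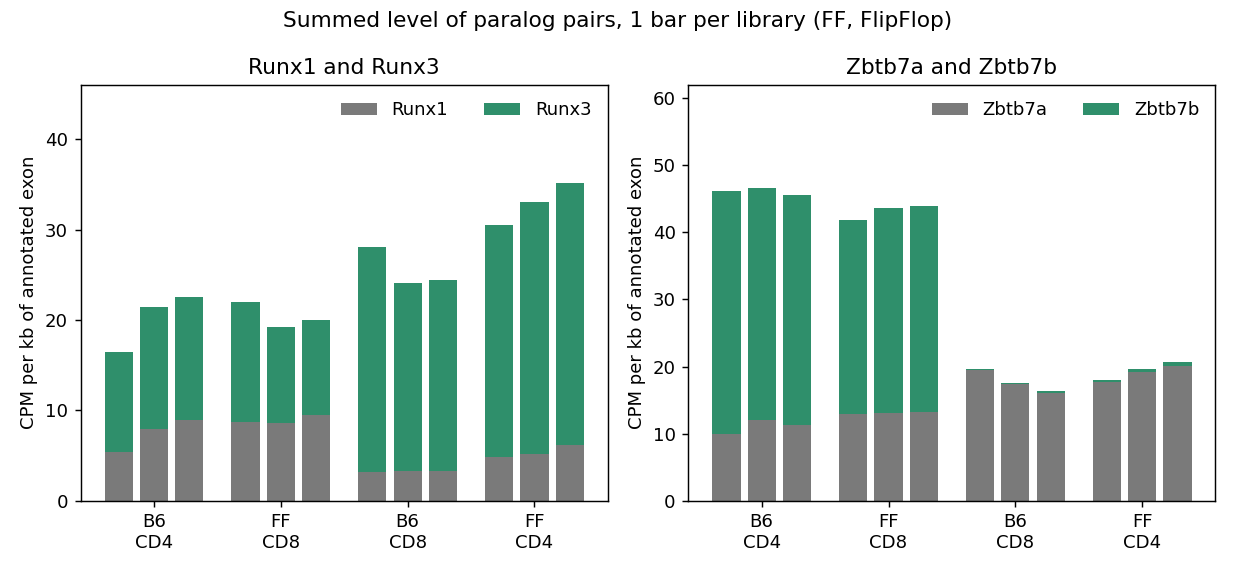
Level per kb of annotated exon (y axis, CPM per kb) of *Runx1* and *Runx3* on the left and *Zbtb7a* and *Zbtb7b* on the right, stacked, with 1 bar per library. The *Runx* bars are highest in FlipFlop CD4 T cells, 30.5 to 35.1 CPM per kb, and the *Zbtb7* bars of the last 6 libraries hold almost only *Zbtb7a*.

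The distal promoter windows of *Runx3* and *Runx1* shared a feature that was not used to choose the genes. Each holds a pair of Runx letters in tandem, on the strand opposite to the gene, with 2 bases between them. The windows are shown with these letters, ACCACA, in capitals, *Runx3* on the plus and *Runx1* on the minus strand.
Runx3 chr4:135120395-135120694: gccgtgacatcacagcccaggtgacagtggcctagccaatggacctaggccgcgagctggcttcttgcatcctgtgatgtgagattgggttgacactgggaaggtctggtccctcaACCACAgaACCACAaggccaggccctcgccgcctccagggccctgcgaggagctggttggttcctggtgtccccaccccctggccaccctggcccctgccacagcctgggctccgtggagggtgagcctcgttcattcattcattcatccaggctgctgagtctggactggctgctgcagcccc
Runx1 chr16:92826025-92826324: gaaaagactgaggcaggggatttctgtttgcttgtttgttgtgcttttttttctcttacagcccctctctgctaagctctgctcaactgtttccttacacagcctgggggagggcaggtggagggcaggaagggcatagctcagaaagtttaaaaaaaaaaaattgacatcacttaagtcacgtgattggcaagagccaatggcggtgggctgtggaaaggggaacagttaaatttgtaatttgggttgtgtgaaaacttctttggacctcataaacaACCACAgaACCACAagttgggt
In *Runx3* the letters begin 134 and 126 bases before the start, and in *Runx1* they begin at bases 29 and 37 of the transcript. The longest run common to both windows, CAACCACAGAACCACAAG, is 18 bases long and holds the pair. The pair itself, ACCACA followed after any 2 bases by ACCACA, on either strand, was found in 7 of 32851 windows (0.0213%), those of *Runx1*, *Runx2*, *Runx3*, *Gm12236*, *Gm15462*, *Gm16225* and *Olfr24*. The 18-base run was found in 4 of these, the 3 *Runx* genes and *Gm16225*, whose window overlaps that of *Runx3*. These matches describe the letters only, and which promoter gave the RNA cannot be read from values per gene. The fourth window with Runx letters was that of *Zbtb7a*, with 1 match 222 bases before the start.

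*Cbfb*, the partner that all Runx proteins need to bind DNA stably, did not pass the test in any comparison. On chromosome 8 it spans 105170674 to 105217989 (ENSMUSG00000031885.14). It ranged from 141 to 214 CPM over the 12 libraries, and all 4 groups overlapped. The CD4 minus CD8 difference was -0.20 (95% interval -0.55 to 0.16, adjusted p = 0.434) in B6 and 0.00 (95% interval -0.36 to 0.35, adjusted p = 0.986) in FlipFlop mice, so a difference of the size of that of *Runx3* lies outside both intervals.

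*Gata3*, which acts upstream of *Zbtb7b* in helper commitment, was about 2-fold higher in helper-lineage cells. On chromosome 2 it spans 9857078 to 9890034 (ENSMUSG00000015619.10). Its values were 49.9, 49.1 and 45.9 CPM in the B6 CD4 libraries, and 54.9, 62.7 and 58.3 CPM in the FlipFlop CD8 libraries. In B6 CD8 libraries it measured 25.9, 24.4 and 21.8 CPM, and in FlipFlop CD4 libraries 26.0, 29.9 and 28.1 CPM. The libraries of the helper and the cytotoxic lineage did not overlap. For CD4 minus CD8 the difference was 0.995 (SE 0.08, adjusted p = 2.50e-06) in B6 and -1.05 (SE 0.08, adjusted p = 1.17e-06) in FlipFlop mice. *Gata3* was higher in FlipFlop CD8 than in B6 CD4 T cells by 0.28 (adjusted p = 0.0306). That call ended when B6 CD4 replicate 2 or 3 or FlipFlop CD8 replicate 2 or 3 was left out, with adjusted p-values up to 0.122, and in a fit of the 6 libraries compared (adjusted p = 0.0660).

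*Tox*, an HMG box factor needed for the helper lineage, showed a smaller difference of the same kind. The gene (ENSMUSG00000041272.11) spans 6686353 to 6991557 on chromosome 4. Its values in B6 CD4 libraries were 89.9, 107 and 103 CPM and in FlipFlop CD8 libraries 111, 105 and 119 CPM. The B6 CD8 libraries held 76.8, 76.1 and 75.7 CPM, and the FlipFlop CD4 libraries 76.7, 74.5 and 95.3 CPM. The groups of each strain did not overlap, but 1 FlipFlop CD4 library was above 1 B6 CD4 library. The CD4 minus CD8 difference was 0.38 (adjusted p = 0.0106) in B6 and -0.45 (adjusted p = 0.00362) in FlipFlop mice.

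For *Gata3*, *Runx1* and *Tox*, the highest mean was that of FlipFlop CD8 T cells, the group in which the summed regulatory and follicular helper T cell markers were also highest. *Foxp3*, the defining gene of regulatory T cells, measured 305 to 362 CPM in the FlipFlop CD8 libraries and 93.1 to 128 in the B6 CD4 libraries, against 0.530 to 2.30 CPM in the other libraries. The part of these cells in the values of the 3 genes was not tested.

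*Myb* differed by strain and not by lineage. It lies on chromosome 10 from 21124935 to 21160984 (ENSMUSG00000019982.15). Its values were 10.7, 12.6 and 11.7 CPM in the B6 CD4 libraries, and 10.4, 9.16 and 11.3 CPM in the B6 CD8 libraries. In FlipFlop CD4 libraries it measured 16.4, 18.1 and 28.6 CPM, and in FlipFlop CD8 libraries 15.8, 19.0 and 23.5 CPM. Each of the 6 FlipFlop libraries was above each of the 6 B6 libraries, which was so for no other of the 10 genes and for 2.66% of all tested genes. FlipFlop CD4 minus B6 CD8 was 0.96 for *Myb* (SE 0.19, adjusted p = 0.00792), and FlipFlop CD8 minus B6 CD4 was 0.70 (SE 0.19, adjusted p = 0.0194). The second call ended without B6 CD4 replicate 1 or FlipFlop CD8 replicate 2 or 3, with adjusted p-values of 0.0554 to 0.0847. The CD4 minus CD8 difference was 0.18 (95% interval -0.24 to 0.59) in B6 and 0.09 (95% interval -0.33 to 0.50) in FlipFlop mice and passed the test in neither. The strain difference cannot be told apart from age, and the part of DNA left from the stem cell strain was not tested.

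*Satb1*, a chromatin organizer that acts on the *Cd4*, *Cd8*, *Zbtb7b* and *Runx3* loci, ranged from 479 to 692 CPM and was called in no comparison. It lies on chromosome 17 from 51736187 to 51833290 (ENSMUSG00000023927.15). Its lineage effect was -0.04 (95% interval -0.21 to 0.13). With the replicate number as a block, *Satb1* passed between FlipFlop CD4 and CD8 T cells (0.21, adjusted p = 0.0293, against 0.174 without the block).

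*Patz1*, which encodes the *Cd8* silencer and *Zbtb7b* repressor MAZR, was the gene of least spread. It lies on chromosome 11 from 3288874 to 3309083 (ENSMUSG00000020453.17). The B6 CD4 libraries held 61.4, 63.1 and 67.7 CPM, the B6 CD8 libraries 64.4, 56.1 and 60.7 CPM, the FlipFlop CD4 libraries 61.6, 64.9 and 64.7 CPM, and each FlipFlop CD8 library 56.0 CPM. FlipFlop CD8 libraries were below FlipFlop CD4 and B6 CD4 libraries without overlap. The differences were 0.19 for FlipFlop CD4 minus CD8 (adjusted p = 0.0491) and -0.19 for FlipFlop CD8 minus B6 CD4 (adjusted p = 0.0479). Both lay at the threshold. Both ended under other scalings of the libraries, where the difference was as small as 0.01 and -0.03, and under eBayes without the trend. The former ended with 8 and the latter with 9 of the 12 libraries left out in turn, and the former also with the replicate block (adjusted p = 0.0561) and with genes of a mean of at least 5 CPM (adjusted p = 0.0536). The latter ended in a fit of the 6 libraries compared (adjusted p = 0.116).

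Counted together, the B6 comparison of CD4 with CD8 called 6 of the 10 genes, against 25.4% of all tested genes. Of these, 4 were higher in CD4 T cells (*Zbtb7b*, *Runx1*, *Gata3* and *Tox*, against 14.6% of all tested genes) and 2 were lower (*Runx3* and *Zbtb7a*, against 10.8%). Between FlipFlop CD4 and FlipFlop CD8 T cells, 7 were called, against 31.3% of all tested genes, and these were the same 6, each with the opposite sign, and *Patz1*. Here 3 were higher and 4 lower in CD4 T cells, against 15.3% and 16.0% of all tested genes. On equal column totals 2 were higher and 4 lower, and the split over all tested genes went from 1779 higher and 1854 lower to 787 and 2957. In B6 mice that split went from 1688 and 1256 to 2084 and 916, with the same counts for the 10 genes. The libraries of the groups compared did not overlap for 6 of the 10 genes in B6 mice, against 37.8% of all tested genes, and for 7 in FlipFlop mice, against 47.2%. The lineage effect was called for the same 6, against 39.3% of all tested genes, 4 of them higher and 2 lower in helper-lineage cells, against 19.9% and 19.4%. *Zbtb7b*, *Zbtb7a*, *Runx3* and *Gata3* separated the 6 helper-lineage from the 6 cytotoxic-lineage libraries, which 16.9% of all tested genes did. The median size of the lineage effect was 0.51 over the 10 genes and 0.16 over all tested genes. With a limit of over 5-fold at an unadjusted p under 0.0001, 1 of the 10 genes passed in each of these comparisons, *Zbtb7b*, against 1.55% of all tested genes in B6, 2.16% in FlipFlop and 1.61% for the lineage effect.

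**Figure D4:**
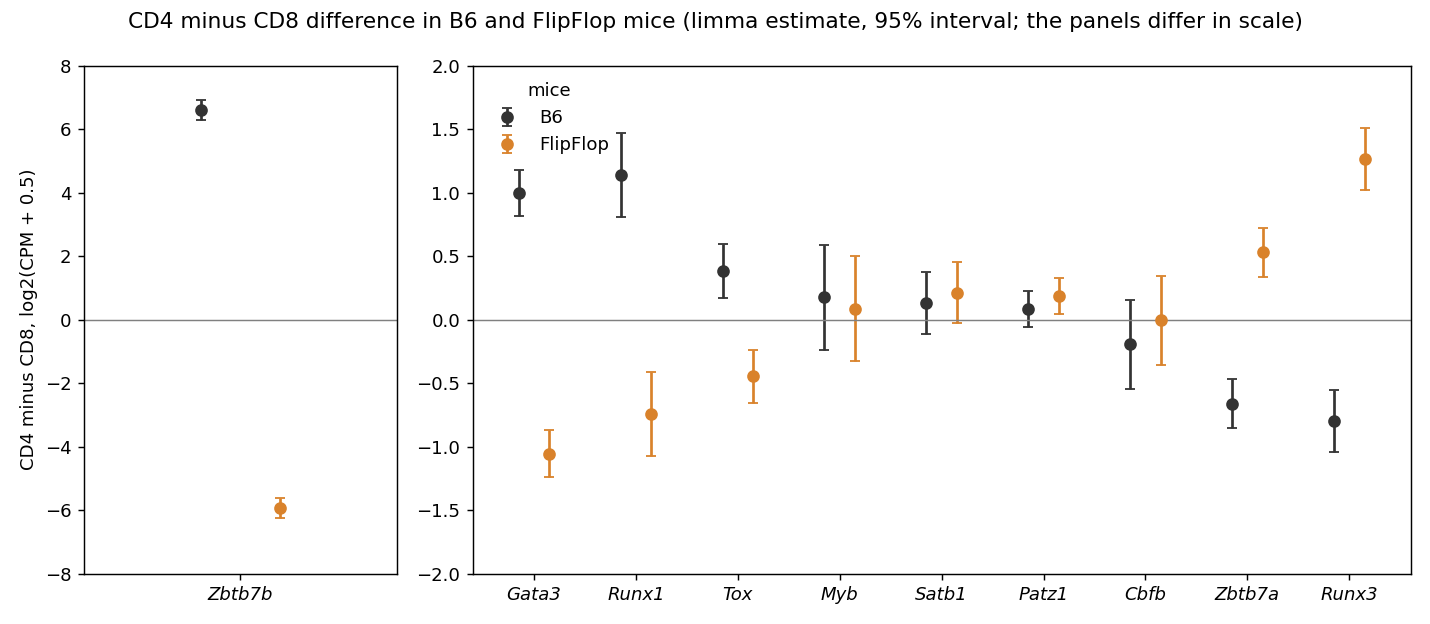
CD4 minus CD8 difference on the log2(CPM + 0.5) scale (y axis) of *Zbtb7b* on the left and the other 9 genes on the right, on a different scale, in B6 and FlipFlop mice. Points are limma estimates from 3 libraries per group and bars are 95% intervals. For *Zbtb7b*, *Gata3*, *Runx1*, *Tox*, *Zbtb7a* and *Runx3*, the B6 and FlipFlop estimates lie on opposite sides of 0 and neither interval reaches 0.

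The coreceptor effect was called for 0 of the 10 genes by limma, against 5.49% of all tested genes. At an unadjusted p under 0.05 it held for 4 of them (*Zbtb7b*, *Runx3*, *Patz1* and *Satb1*), against 18.6% of all tested genes. It was 0.34 (95% interval 0.12 to 0.55, adjusted p = 0.0766) for *Zbtb7b* and 0.23 (95% interval 0.06 to 0.41, adjusted p = 0.124) for *Runx3*. Without B6 CD4 replicate 1 the effects of *Runx1* (0.31, adjusted p = 0.0190) and *Runx3* (0.28, adjusted p = 0.0491) passed. Without B6 CD8 replicate 3 or FlipFlop CD4 replicate 1, that of *Zbtb7b* passed (adjusted p = 0.0252 and 0.0465). It also passed with the replicate number as a block (adjusted p = 0.0481).

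Between groups of like lineage, 2 of the 10 genes were called for FlipFlop CD4 minus B6 CD8 (*Myb* and *Runx1*), against 7.92% of all tested genes, and 3 for FlipFlop CD8 minus B6 CD4 (*Myb*, *Gata3* and *Patz1*), against 27.6%. The latter were 2 higher and 1 lower, against 13.2% and 14.4% of all tested genes. The libraries did not overlap for 4 of the 10 genes in the former comparison, against 32.4% of all tested genes, and for 5 in the latter, against 43.6%. On equal column totals and on median-of-ratios rescaling the latter comparison called 3 genes, all higher in FlipFlop CD8 T cells, in place of 2 higher and 1 lower, with *Zbtb7a* (0.41, adjusted p = 0.0186, and 0.27, adjusted p = 0.0463) in place of *Patz1*. Over all tested genes this comparison called 1528 higher and 1668 lower, 2840 and 548 on equal column totals, and 1670 and 1375 on median-of-ratios rescaling. *Zbtb7a* also passed without B6 CD4 replicate 2 or B6 CD8 replicate 1 (adjusted p = 0.0357 and 0.0481), and *Runx1* without B6 CD4 replicate 3 (0.46, adjusted p = 0.0335).

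Over the 12 libraries, the genes whose log2 values were most like those of *Zbtb7b*, among 8072 genes of at least 10 CPM on average, were *Lgmn* (Pearson r = 0.994), *Ly6c1*, *H1f0*, *Marcksl1* and *Tbc1d4* (r = 0.990). *Lgmn*, which encodes the protease legumain, averaged 25.5 CPM in B6 CD4, 20.8 in FlipFlop CD8, 1.84 in B6 CD8 and 1.94 in FlipFlop CD4 T cells. *Ly6c1* is uncertain because reads can be shared with its close paralog *Ly6c2*. Of the 10 genes, *Gata3* was most like *Zbtb7b* (r = 0.960), and *Runx3* (r = -0.931) was most unlike it. The genes most like *Runx3* were *Ppm1h* (r = 0.984), *Prf1* (r = 0.984), *AC158975.2*, *Ttc7* and *Nedd4l* (r = 0.973). *Prf1*, which encodes perforin and is a known Runx3 target, averaged 60.0 CPM in B6 CD4, 50.3 in FlipFlop CD8, 157 in B6 CD8 and 213 in FlipFlop CD4 T cells. These correlations are descriptions over libraries that fall into 2 sets by lineage.

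The counts of the lists that follow are to be read against the lineage effect over all tested genes, of which 39.3% were called, 19.9% higher and 19.4% lower, and on equal column totals 3566 genes higher and 1160 lower. A gene that reached 1 CPM in fewer than 3 libraries of the lineage where it is low passed the filter only through the other lineage. Such a gene had to differ. This was so for 614 of the 4554 called genes, 498 higher and 116 lower, and without them 1808 higher and 2132 lower are left. Such genes are named for each list. Of 40 tested genes of the BTB zinc finger family, to which ThPOK and LRF belong, the lineage effect was higher in helper-lineage cells for 10, lower for 3 and not called for 27, so that the called genes were 13 of 40, against 39.3% of all tested genes, with a median size of 0.12 against 0.16 over all tested genes. Of the 10, *Zbtb16* and *Zbtb32* passed the filter only through helper-lineage libraries, and 8 are left without them. On equal column totals 15 were higher and 2 lower. The symbols include *Zbtb11os1* and *Zbtb8os*, opposite-strand genes taken by their prefix and not of the family, and *Zbtb11os1* is one of the 3 called lower (-0.32, adjusted p = 0.00927). *Bcl6*, the factor of follicular helper T cells, averaged 32.3 CPM in B6 CD4, 40.2 in FlipFlop CD8, 18.4 in B6 CD8 and 22.6 in FlipFlop CD4 T cells, a lineage effect of 0.81 (adjusted p = 8.80e-06). *Zbtb16*, which encodes the innate-like T cell factor PLZF, passed the filter on low values only through the FlipFlop CD8 libraries, so its fitted effects are not given. It averaged 7.93 CPM in FlipFlop CD8 and 0.216 in B6 CD4 T cells, was at 0.0221 in B6 CD8 and was at 0 in all FlipFlop CD4 libraries. The NK and NKT cell gene *Klrb1c* was also highest in FlipFlop CD8 libraries (10.2 to 11.8 CPM, against 1.57 to 4.26 in the others), while *Tyrobp*, the other listed NK marker, was not (1.09 to 1.45 CPM, against 1.26 to 1.88 in B6 CD4 libraries). Their part in the *Zbtb16* value was not tested.

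Of 11 tested Runx partners and corepressors, the lineage effect was higher for 2, lower for 1 and not called for 8, against 39.3% of all tested genes called, and on equal column totals higher for 4 and lower for 1. Of the 2, *Cbfa2t3* passed the filter only through FlipFlop CD8 libraries (mean 1.24 CPM, against 0.511 to 0.667 in the other groups). *Tle4*, a Groucho corepressor, averaged 109 CPM in B6 CD8 and 111 in FlipFlop CD4 against 74.4 in B6 CD4 and 72.7 in FlipFlop CD8 T cells, a lineage effect of -0.59 (adjusted p = 3.99e-05). *Runx2* did not follow its paralogs. It averaged 10.3 and 10.0 CPM in B6 CD8 and FlipFlop CD8, and 4.30 and 5.57 CPM in B6 CD4 and FlipFlop CD4 T cells. Its coreceptor effect was -1.03 (adjusted p = 0.00892), so it was higher in CD8 than in CD4 T cells of both strains, while its lineage effect was -0.20 (adjusted p = 0.471). Of the memory or effector markers, *Il2rb* was also higher in both CD8 groups (547 to 585 CPM in B6 and 533 to 646 in FlipFlop mice) than in both CD4 groups (at most 307 and 353 CPM). *Ccl5* and *Cxcr3* were higher in B6 CD8 (82.2 to 119 and 81.9 to 93.5 CPM) than in B6 CD4 libraries (8.84 to 26.6 and 27.4 to 37.4 CPM). In FlipFlop mice the CD4 and CD8 libraries overlapped for both. *S100a4*, *Cd44* and *Klrg1* were lower in B6 CD8 than in B6 CD4 libraries. Their part in the *Runx2* value was not tested.

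Of 5 tested paralogs of *Tox*, *Gata3*, *Myb* and *Satb1* (a list that also held the GATA cofactor gene *Zfpm1*), 3 were higher in helper-lineage cells and 0 lower, against 19.9% and 19.4% of all tested genes. Of the 3, *Tox2* passed the filter only through helper-lineage libraries, so its fitted effect is not given. *Tox2*, known from follicular helper T cells, averaged 13.6 CPM in B6 CD4 and 13.5 in FlipFlop CD8 against 0.429 in B6 CD8 and 0.638 in FlipFlop CD4 T cells.

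Of 22 other regulators of the choice, the lineage effect was higher for 9, lower for 6 and not called for 7, against 39.3% of all tested genes called. On equal column totals it was higher for 10 and lower for 1. *Id3*, an inhibitor of E proteins, had the largest rise (0.74, adjusted p = 0.000173) and *Tcf12*, which encodes the E protein HEB, the largest fall (-0.34, adjusted p = 0.0122). *Tcf7*, which encodes TCF-1, was not called, with a lineage effect of 0.05 (adjusted p = 0.448). *Lef1* had the largest coreceptor effect of this list (0.43, adjusted p = 0.000219), with 469 CPM in B6 CD4, 533 in FlipFlop CD4, 437 in B6 CD8 and 316 in FlipFlop CD8 T cells.

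Of 12 genes known to be regulated by ThPOK or Runx, the lineage effect was higher for 4, lower for 7 and not called for 1, against 39.3% of all tested genes called. The 12 include *Cd4*, *Cd8a* and *Cd8b1*. These encode the coreceptors by which cells were sorted, so their results cannot be separated from the design. *Cd40lg*, the CD40 ligand gene of helper cells, averaged 75.0 CPM in B6 CD4 and 54.2 in FlipFlop CD8 against 0.816 in B6 CD8 and 2.93 in FlipFlop CD4 T cells. Its coreceptor effect was 0.93 (adjusted p = 0.000803) beside a lineage effect of 4.94. *Eomes*, a cytotoxic T cell factor, averaged 69.1 CPM in B6 CD8 and 64.9 in FlipFlop CD4 against 7.11 in B6 CD4 and 13.5 in FlipFlop CD8 T cells. *Itgae*, which encodes the integrin CD103, did not keep to this order, with 225 CPM in B6 CD8, 79.8 in FlipFlop CD4, 86.6 in FlipFlop CD8 and 39.1 in B6 CD4 T cells. The gene not called was *Tbx21*, which encodes T-bet, and it too stood out of this order, with 24.6 CPM in B6 CD8, 7.98 in FlipFlop CD4, 14.0 in FlipFlop CD8 and 6.26 in B6 CD4 T cells and a coreceptor effect of -1.39 (adjusted p = 0.0134). The part of the memory or effector markers in the values of *Itgae* and *Tbx21* was not tested either. The effector gene *Gzmb* (granzyme B) was called higher in helper-lineage cells, by 1.33 (adjusted p = 0.00510), at a mean of at most 8.95 CPM. For *Gzmb* the CD4 minus CD8 difference was called in FlipFlop (-2.30, adjusted p = 0.00182) and not in B6 mice (0.35, adjusted p = 0.627). *Ifng* (interferon-γ), another of the 4 counted as higher, passed the filter only through helper-lineage libraries, with means of 2.27 CPM in B6 CD4, 1.78 in FlipFlop CD8, 0.331 in B6 CD8 and 0.234 in FlipFlop CD4 T cells, and its difference was called within neither strain. The *Cd4* and *Cd8a* loci are altered in FlipFlop mice so that each encodes the other coreceptor. Reads of the *Cd4* and *Cd8a* genes there can come from either locus, which values per gene cannot tell apart. *Cd8b1*, the gene of CD8β, averaged 1829 CPM in FlipFlop CD4, 1885 in B6 CD8, 137 in FlipFlop CD8 and 23.8 in B6 CD4 T cells. Values per gene cannot tell reads of the *Cd8b1* gene from those of CD8β sequence in the altered *Cd4* locus.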

How the data were processed

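RNA from sorted LN T cells was made into libraries with a low-input kit and read as paired ends. The authors aligned reads with STAR (methods), while the submitters' processing notes name Trimmomatic, TopHat and mm10. The counting program, strand setting, annotation and low-value filter are not given in the sources used here. The deposited values are a normalized expression signal, CPM already scaled by TMM, in 1 table with 1 column per library. All 12809 identifiers matched GENCODE M21 (GRCm38), the source of positions and exon lengths. Whole reads, to within 0.005 of a read, made up 84.8% to 86.4% of values under 100 CPM, short of the 95% required for a count test. No 2 libraries were identical, and floors cover counting error only.

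Values as log2(CPM + 0.5) of 11595 genes (1 CPM or more in 3 or more libraries) were fitted with limma 3.58.1 (trended eBayes, R 4.3.3), 1 mean per group and 12 libraries, with Benjamini-Hochberg adjustment over all genes. The fit was tested on simulated data. Figures used matplotlib 3.10.9 in python 3.11.15. Promoters are from RefSeq (GRCm38.p6). The genes, lists and tests were chosen with earlier results of these data known. All 10 genes are named, the 5 genes most like *Zbtb7b* and *Runx3*, and from the lists those with the largest or smallest effect or fixed by name. *Klrb1c*, *Tyrobp*, *Dntt*, *Cd1d1*, *Il2rb*, *Ccl5*, *Cxcr3*, *S100a4*, *Cd44*, *Klrg1*, *Tbx21*, *Gzmb*, *Ifng*, *Cbfa2t3*, *Gm15417*, *Zbtb11os1*, *Zbtb8os* and the promoter matches were named after values or letters were seen. Deviations of same-numbered CD4 and CD8 libraries from their group means correlated at 0.44, 0.27 and 0.51 in FlipFlop mice, which by the rule of over 0.1 for each pairs them, and at 0.18, 0.09 and 0.35 in B6 mice, which does not. The alternatives were other pseudocounts, filters, scalings, moderation, thresholds, fits of the groups compared alone, a replicate block and each library left out.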

Additional observations from a re-analysis of the deposited data

Results flagged for a closer look

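The CD4 minus CD8 difference was unlike in B6 and FlipFlop mice for 6 of the 10 genes, tested as the interaction of strain and coreceptor. The lineage effect has the same p-value, and its size is the gap between the B6 and FlipFlop differences divided by 2. On the log2(CPM + 0.5) scale the lineage effect was 6.27 for *Zbtb7b* (limma adjusted p = 5.13e-13), 1.02 for *Gata3* (adjusted p = 4.04e-08), 0.94 for *Runx1* (adjusted p = 1.72e-05), 0.41 for *Tox* (adjusted p = 0.000360), -1.03 for *Runx3* (adjusted p = 5.05e-07) and -0.60 for *Zbtb7a* (adjusted p = 8.61e-06). In each of these genes the difference had opposite signs in B6 and FlipFlop mice.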

How the results depend on the processing

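The lineage effects of *Zbtb7b*, *Zbtb7a*, *Runx1*, *Runx3*, *Gata3* and *Tox*, and their differences within B6 and within FlipFlop mice, kept their direction and passed the test under every pseudocount, filter, scaling, block and left-out library tried. With a limit of over 5-fold, at an unadjusted p under 0.0001 or under 0.05, the number called was 1 of 10 in B6, 1 in FlipFlop, 1 in the lineage effect, 0 for FlipFlop CD4 minus B6 CD8 and 0 for FlipFlop CD8 minus B6 CD4. Over all genes, these limits left 180 and 182 genes in B6 (2944 without them), 250 and 256 in FlipFlop (3633), 187 under either limit in the lineage effect (4554), 2 under either in the coreceptor effect (636), 55 and 62 for FlipFlop CD4 minus B6 CD8 (918) and 47 and 52 for FlipFlop CD8 minus B6 CD4 (3196). With genes of a mean of at least 5 CPM the coreceptor effect was called for 301 genes. A fit of the 6 libraries compared called 1 of 10 for FlipFlop CD8 minus B6 CD4, and 1500 of all genes.

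Without the TMM factor (equal column totals) the median difference of all genes shifted by -0.17 for FlipFlop CD4 minus CD8, 0.12 for the lineage effect and 0.16 for FlipFlop CD8 minus B6 CD4, and uncalled differences reversed: *Myb* in FlipFlop mice (-0.0863), the lineage effects of *Cbfb* (0.0264), *Patz1* (0.0709) and *Satb1* (0.0805), and *Runx3* for FlipFlop CD8 minus B6 CD4 (0.00590). Of all called genes in the lineage effect, 2306 were higher and 2248 lower, against 3566 and 1160 on equal totals.

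With the replicate number as a block, the coreceptor effect was called for 1 of 10, *Zbtb7b* (adjusted p = 0.0481). *Zbtb7b* also passed for FlipFlop CD4 minus B6 CD8 (adjusted p = 0.0439), and *Satb1* for FlipFlop CD8 minus B6 CD4 (-0.20, adjusted p = 0.0305), beside the changes of *Satb1* and *Patz1* in FlipFlop mice given above. Same-numbered libraries of like lineage in B6 and FlipFlop mice share only a number, with correlations of their deviations of -0.09, -0.01 and 0.07 for B6 CD8 with FlipFlop CD4 and 0.18, 0.04 and 0.18 for B6 CD4 with FlipFlop CD8. The block changed no other call of the 10 genes.

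With each library left out in turn, the number called was 0 to 2 for the coreceptor effect, 1 to 3 for FlipFlop CD4 minus B6 CD8 (1 without FlipFlop CD4 replicate 3) and 0 to 4 for FlipFlop CD8 minus B6 CD4 (0 without FlipFlop CD8 replicate 2 or 3). Uncalled differences that reversed ranged from -0.11 to 0.0652 (*Cbfb*, FlipFlop), -0.15 to 0.24 (*Myb*, FlipFlop), -0.0307 to 0.16 (*Myb*, lineage), -0.0929 to 0.00614 (*Satb1*, lineage), -0.0867 to 0.00514 (*Tox*, coreceptor), -0.0114 to 0.16 (*Tox*, FlipFlop CD4 minus B6 CD8) and -0.0781 to 0.22 (*Cbfb*, FlipFlop CD8 minus B6 CD4). Over all genes, the counts were 396 to 604 for the coreceptor effect, 515 to 1566 for FlipFlop CD4 minus B6 CD8 and 1654 to 3751 for FlipFlop CD8 minus B6 CD4. The cause of the changes listed here was not tested.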
